A study of Mus musculus with 24 samples.

Results

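A set of 10 named genes of the NF-kappaB pathway was followed in the mouse prefrontal cortex (PFC): the inhibitors Nfkbia and Tnfaip3, the subunits Nfkb1, Nfkb2, Rel, Rela and Relb, the kinase Ikbkb, and the adhesion targets Icam1 and Vcam1. They were taken by gene symbol from a table of normalized counts, where 6 had a row among 14074 genes: Nfkbia, Nfkb1, Rela, Relb, Ikbkb and Vcam1. All 6 were among the 13690 genes with enough reads to be tested. Nfkb2, Rel, Tnfaip3 and Icam1 were not analysed here.

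NF-kappaB transcription factors are dimers of subunits that are held in the cytoplasm by inhibitor proteins of the IkappaB family. An IkappaB kinase complex, of which Ikbkb encodes a catalytic subunit, marks the inhibitor for destruction, and the freed dimers then switch on genes for cytokines, adhesion molecules and the inhibitor itself, which closes a feedback loop. Glucocorticoids are known to act against this pathway and to raise expression of the inhibitor in several cell types, and in the brain the adhesion molecule made by Vcam1 is best known from the vessel wall.

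The samples were PFC tissue of male C57BL/6 mice, 1 RNA-seq library of poly(A) RNA per mouse and 4 mice in each of 6 groups. Control mice were intact and individually housed before the experiment, whereas stressed mice went through 30 days of chronic social defeat by aggressive males. Stressed mice were divided by clustering of their behaviour in a social encounter into a passive coping phenotype (PS) and an active coping phenotype (AS). Mice of each phenotype received saline or 2 mg/kg dexamethasone (DEX, a synthetic glucocorticoid), and tissue was taken 6 h after the injection. The groups therefore were control, PS and AS, each with saline or DEX, with no genetic modification in any of them. The phenotypes rest on behaviour scored near the end of the stress period, so they are not randomised groups. The tissue block spans several cortical areas and all of their cell types.

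The libraries held 21121869 to 59439645 reads assigned to genes, and the group medians ran from 22869703 in control mice with saline to 37876626 in AS mice with DEX, so depth and phenotype were not independent. As a check of the DEX labels, the glucocorticoid-induced genes Fkbp5, Tsc22d3 and Sgk1 were higher in all 4 DEX libraries than in all 4 saline libraries of each phenotype. Neuronal markers were abundant in every group, with a summed level of 4 pan-neuronal genes between 137263 and 177728 normalized counts. This sum was not constant over the groups. In control mice it ran from 150481 to 163835 with saline and from 137263 to 162345 with DEX. In PS mice it ran from 146292 to 161502 and from 155483 to 169445, and in AS mice from 140867 to 160438 and from 165115 to 177728. None of 8 markers of blood leukocytes had a row in the table. Levels are given in normalized counts, the read count of a gene divided by a size factor of the library, and differences on the log2(normalized count + 1) scale. A gene was called when its p-value from limma, adjusted over all 13690 genes, was under 0.1.

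Nfkbia, which encodes the inhibitor IkappaB-alpha, lies on chromosome 12 (55489410 to 55492647, minus strand, mm10). Its promoter is shown because Nfkbia was called in more DEX comparisons than the other members, and because the feedback loop of the pathway runs through a binding site of this kind. The 250 bases before the start of the gene in RefSeq's annotation (GRCm38.p6, chr12:55492648-55492897, minus strand) read as follows, with the match to the kappa-B consensus in capitals.
Nfkbia: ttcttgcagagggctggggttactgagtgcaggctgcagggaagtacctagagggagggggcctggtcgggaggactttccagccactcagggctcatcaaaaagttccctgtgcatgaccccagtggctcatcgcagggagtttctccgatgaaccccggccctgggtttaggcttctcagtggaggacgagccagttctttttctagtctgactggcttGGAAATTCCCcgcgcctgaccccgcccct

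The match GGAAATTCCC ran from base -29 to base -20 relative to the start and was found on the strand opposite to the gene. Within 300 bases (250 before to 50 after the start), searched on both strands, the kappa-B consensus was present in 8.46% of 32851 promoters and in 10.5% of the 12956 promoters of tested genes. The palindromic consensus of the glucocorticoid response element, which is the same on both strands, had no match in this window of Nfkbia and was present in 0.00913% of all promoters. Rela (chromosome 19, 5637483 to 5648130, plus strand) was the other measured member with a promoter sequence, and neither motif had a match in its window. A match of letters is a description and does not show that a factor was bound.

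Per kilobase of exon sequence (union of annotated exons), Nfkbia had the highest level of the members, with a mean of 377 normalized counts per kilobase over the 24 libraries. Rela followed with 193, Vcam1 with 87.9, Ikbkb with 65.1, Nfkb1 with 38.9 and Relb with 27.4 normalized counts per kilobase. This order depends on the exon lengths used, which ran from 1610 bases for Nfkbia to 19078 for Ikbkb. Without division by length, Ikbkb had the highest mean, 1241 normalized counts, beside 607 for Nfkbia. The depth behind these values was at least 50 reads in a library, for Relb, and at most 2447 reads, for Ikbkb. In bulk tissue, fewer cells of a type and less RNA per cell cannot be told apart, which holds for all differences below.

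**Figure D1:**
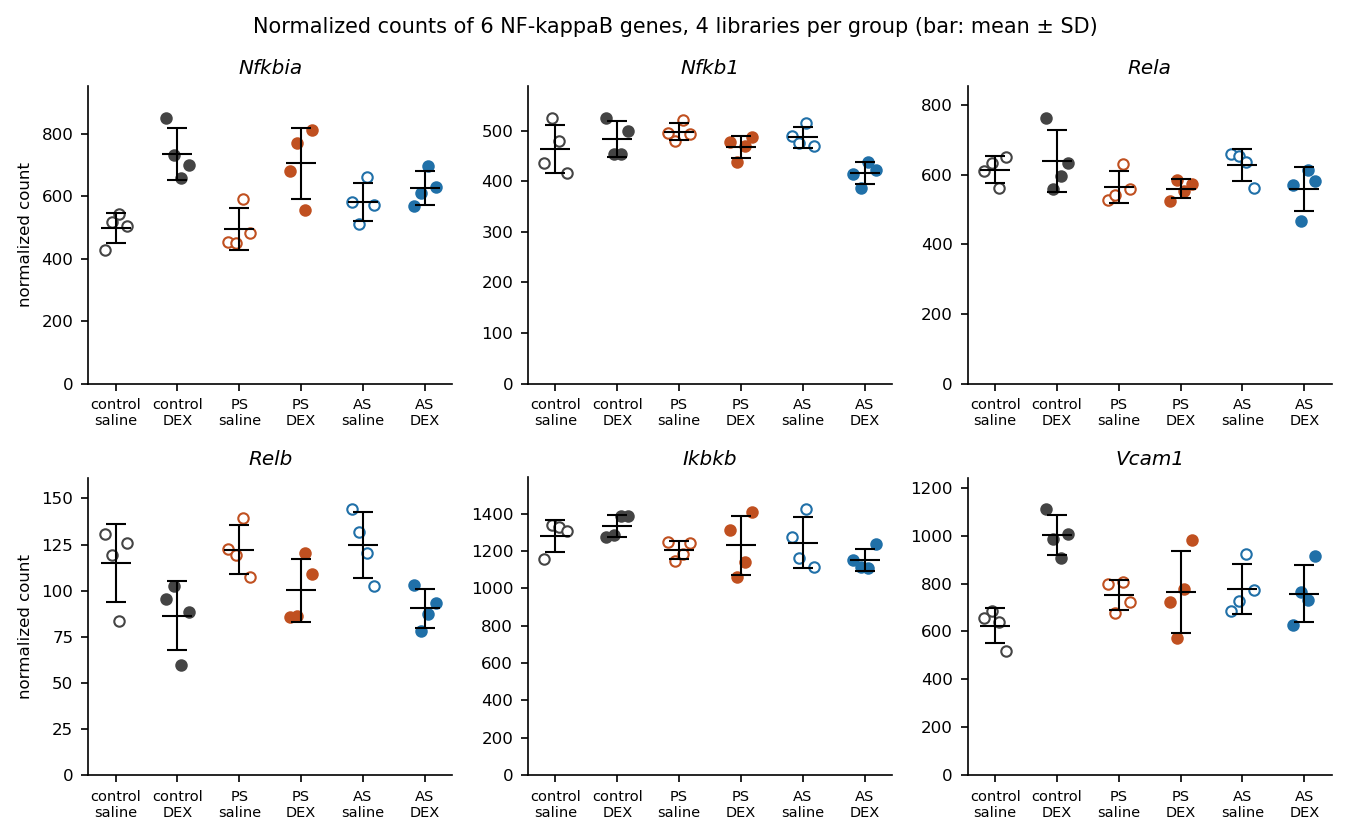
Normalized counts of the 6 members by group, 1 point per library (open, saline; filled, DEX), with the mean and SD of 4 libraries as bars and each axis starting at 0. Nfkbia and Vcam1 in control mice separated completely by treatment, whereas Rela and Ikbkb overlapped in every phenotype.

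The first question was how these genes responded to DEX in each phenotype. DEX raised Nfkbia in control and PS mice and raised Vcam1 in control mice, whereas Nfkb1 was lower with DEX in AS mice. Over the 3 phenotypes together, Nfkbia and Vcam1 rose and Relb, a subunit of the non-canonical branch, fell. Rela and Ikbkb did not pass the test in any comparison. In control mice 2 of the 6 members were called, where 6.72% of all tested genes were. In PS mice 1 of 6 was called against 5.62% of all genes, in AS mice 1 of 6 against 9.15%, and for the mean effect over phenotypes 3 of 6 against 16%. By the test of any difference among the 6 groups, 3 members were called (Nfkbia, Relb and Vcam1), where 15.3% of all genes were. The calls of Nfkbia and Vcam1 over the groups held with each library left out, whereas that of Relb was lost in 16 of the 24 analyses (adjusted p of up to 0.155) and in 2 of 7 alternatives.

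Complete separation of the 4 DEX from the 4 saline libraries was seen for 2 members in control mice (10.3% of all genes), for 0 in PS mice (10.4% of all genes) and for 1 in AS mice (9.22% of all genes). The medians of the 6 members' log2 fold changes were 0.06 for control, -0.01 for PS and -0.14 for AS mice. Those of all tested genes were -0.01, -0.00 and 0.00. The estimates of 5 of the 6 members were above 0 in control mice (all but Relb), 3 were above and 3 below 0 in PS mice, and 5 were below 0 in AS mice (all but Nfkbia).

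Nfkbia was the inhibitor measured. In control mice it stood at 428, 506, 518 and 542 normalized counts with saline and at 658, 699, 732 and 851 with DEX. All DEX libraries were above all saline libraries, and the log2 fold change was 0.56 (SE 0.12, adjusted p = 0.00364, limma). In PS mice the saline libraries stood at 451, 455, 482 and 592 and the DEX libraries at 556, 681, 772 and 813 normalized counts. One DEX library lay below the highest saline library there, and the log2 fold change was 0.50 (adjusted p = 0.0105, limma).

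In AS mice the saline libraries held 513, 572, 581 and 662 normalized counts of Nfkbia and the DEX libraries 568, 609, 631 and 698. These ranges overlapped widely, and the log2 fold change of 0.11 (SE 0.12) was not called (adjusted p = 0.701, limma). The AS group with saline had the highest mean of the saline groups, 582 ± 61.5 (SD, n = 4), beside 498 ± 49.3 in control and 495 ± 66.2 in PS mice. The AS group with DEX had the lowest mean of the DEX groups, 627 ± 54.2, beside 735 ± 83.2 in control and 706 ± 114 in PS mice.

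The smaller response of Nfkbia in AS mice was not established as a difference between phenotypes. The DEX response in AS minus that in control mice was -0.45 on the log2 scale (SE 0.16), with an unadjusted p of 0.0109 and an adjusted p of 0.209 by limma. Against PS mice it was -0.40 (unadjusted p = 0.0232, adjusted p = 1.0, limma). The mean DEX effect over phenotypes was 0.39 (SE 0.07, adjusted p = 0.000166, limma), and this call and those in control and PS mice held in each alternative analysis and with each library left out.

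Among the subunits, Nfkb1 (chromosome 3, 135584655 to 135691547, minus strand) encodes a precursor that is processed to a DNA-binding partner of Rela. In AS mice its saline libraries held 469, 475, 489 and 515 normalized counts and its DEX libraries 387, 413, 423 and 438. The groups did not overlap, and the log2 fold change was -0.23 (SE 0.07, adjusted p = 0.0614, limma). The size was small, a ratio of mean levels of 0.853, and the call was lost without AS saline mouse 8 or 40 or AS DEX mouse 38 or 42. It was also lost in 2 of 8 alternative settings, quantile normalization and a fit of only the groups compared (adjusted p of up to 0.173, limma).

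In control mice Nfkb1 ran from 417 to 524 normalized counts with saline and from 453 to 525 with DEX, with a log2 fold change of 0.06. In PS mice it ran from 480 to 521 with saline and from 438 to 488 with DEX, with a log2 fold change of -0.09. Neither passed the test (adjusted p = 0.787 and 0.695, limma). The response in AS minus that in control mice was -0.29 (unadjusted p = 0.0095, adjusted p = 0.199, limma).

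Relb (chromosome 7, 19606217 to 19629438, minus strand) encodes the subunit that pairs with the processed product of Nfkb2, and was the member with the fewest reads. Control mice had 83.7, 119, 126 and 131 normalized counts with saline and 59.6, 88.3, 95.3 and 102 with DEX. In PS mice the values were 107, 119, 122 and 139 with saline and 85.7, 86.2, 109 and 120 with DEX. AS mice had 102, 120, 132 and 144 with saline and 78.0, 87.5, 93.3 and 103 with DEX. The group mean was lower with DEX in each phenotype, and the ranges overlapped in all 3, in AS mice by a single library on each side.

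The log2 fold changes of Relb were -0.41 in control (adjusted p = 0.20), -0.29 in PS (adjusted p = 0.492) and -0.46 in AS mice (adjusted p = 0.12, limma), none of which was called. Their mean was -0.39 (SE 0.10, adjusted p = 0.00779, limma), a call that held in each alternative and with each library left out. Without control saline mouse 109 the call was also made in control mice, and without that mouse, control DEX mouse 112 or AS saline mouse 44 it was made in AS mice. The DEX responses differed between phenotypes by at most 0.16 on the log2 scale, with SEs of 0.24.

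Rela encodes the main activating subunit. Its libraries ranged from 560 to 649 normalized counts in control mice with saline, from 558 to 763 in control mice with DEX, from 526 to 629 in PS mice with saline and from 523 to 585 in PS mice with DEX. In AS mice they ranged from 561 to 659 with saline and from 466 to 614 with DEX. The log2 fold changes with DEX were 0.05 for control, -0.01 for PS and -0.17 for AS mice, each with an SE of 0.09 and adjusted p-values between 0.333 and 0.982 (limma).

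Ikbkb (chromosome 8, 22659212 to 22706589, minus strand), the kinase, ranged from 1059 to 1423 normalized counts over all 24 libraries. Its log2 fold changes with DEX were 0.06 for control, 0.02 for PS and -0.10 for AS mice, each with an SE of 0.08. The groups overlapped in each phenotype and the lowest adjusted p was 0.570 (limma).

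Within a library, the number of Nfkbia reads per Nfkb1 read relates the inhibitor to a subunit and needs no scaling between libraries. This ratio was chosen after the values were seen and is given with no test. In control mice it ran from 0.981 to 1.21 with saline and from 1.40 to 1.62 with DEX, and in PS mice from 0.918 to 1.14 with saline and from 1.19 to 1.76 with DEX. In AS mice it ran from 1.08 to 1.29 with saline and from 1.37 to 1.59 with DEX. The DEX libraries were thus above the saline libraries in each phenotype, AS mice included, and the means with DEX were 1.52 for control, 1.51 for PS and 1.51 for AS mice. The means with saline were 1.08 for control, 0.993 for PS and 1.19 for AS mice. In AS mice the ratio of mean levels, DEX over saline, was 1.08 for Nfkbia and 0.853 for Nfkb1, so the ratio there moved with both genes. Per Rela read, control values ran from 0.700 to 0.968 with saline and from 1.10 to 1.31 with DEX. PS values ran from 0.832 to 0.941 and from 1.01 to 1.42, so neither phenotype overlapped. The AS ranges overlapped, from 0.784 to 1.04 with saline and from 0.997 to 1.31 with DEX.

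Vcam1 (chromosome 3, 116109949 to 116129688, minus strand) encodes a cell-surface ligand for leukocyte integrins and was the only measured adhesion target of the set. In control mice it stood at 518, 640, 655 and 684 normalized counts with saline and at 906, 986, 1007 and 1110 with DEX. The groups were fully separated, and the log2 fold change of 0.69 (SE 0.13, adjusted p = 0.00205, limma) was the largest among the members in any phenotype. In PS mice the saline libraries held 676, 723, 799 and 807 and the DEX libraries 571, 724, 776 and 984 normalized counts, with a log2 fold change of 0.00 (adjusted p = 0.999, limma).

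In AS mice Vcam1 stood at 684, 728, 773 and 922 normalized counts with saline and at 625, 730, 763 and 915 with DEX. The ranges nearly coincided and the log2 fold change was -0.04 (adjusted p = 0.924, limma). The response in AS minus that in control mice was -0.73 (SE 0.19), with an unadjusted p of 0.000786 and an adjusted p of 0.111 by limma. For PS minus control it was -0.69 (unadjusted p = 0.00132, adjusted p = 0.308, limma), and AS minus PS was -0.04. These 2 differences share the control libraries.

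No member was called for a difference in DEX response between phenotypes by limma. The estimates of all 6 members were below 0 for AS minus control, with a median of -0.26 where that of all tested genes was 0.00, and all 6 were below 0 for AS minus PS, with a median of -0.15 where that of all genes was -0.00. These comparisons share the AS libraries, and the members were not tested as a set. For AS minus control, 0 of 6 members were called beside 0.336% of all genes. There, 3 members had an unadjusted p under 0.05, beside 1884 of 13690 genes. DESeq2 called 1 member there (Vcam1) beside 3.2% of all genes, and edgeR called 0 beside 0.599%. For PS minus control, limma called 0 members and 0% of all genes, and edgeR and DESeq2 called 0 members. The count of all genes by DESeq2 is given in the last section. With so few genes called, 0 of 6 says little about the members. An unadjusted p under 0.05 was seen for 1 member, beside 1397 of 13690 genes. For AS minus PS the counts were again 0 members and 0% of all genes by limma, and 0 members by edgeR and DESeq2. Where limma called no gene at all, 0 of 6 says little about the members. An unadjusted p under 0.05 was seen for 1 member, beside 334 of 13690 genes.

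For Vcam1, the call in AS minus control was also made when only the 4 groups compared were fitted, and in 7 of 24 analyses with a library left out (control DEX mouse 112, AS saline mouse 14 or 44, PS DEX mouse 34 or 56, AS DEX mouse 60 or 72), with adjusted p-values from 0.0480 to 0.288 over the 24. The mean DEX effect of Vcam1 over phenotypes, 0.22 (adjusted p = 0.0692, limma), averaged over estimates of 0.69, 0.00 and -0.04, and its call was lost in 9 of the 24. These were the analyses without control saline mouse 117, control DEX mouse 101, PS saline mouse 28 or 68, AS saline mouse 8 or 14, PS DEX mouse 52 or 56, or AS DEX mouse 72, with an adjusted p of up to 0.131.

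**Figure D2:**
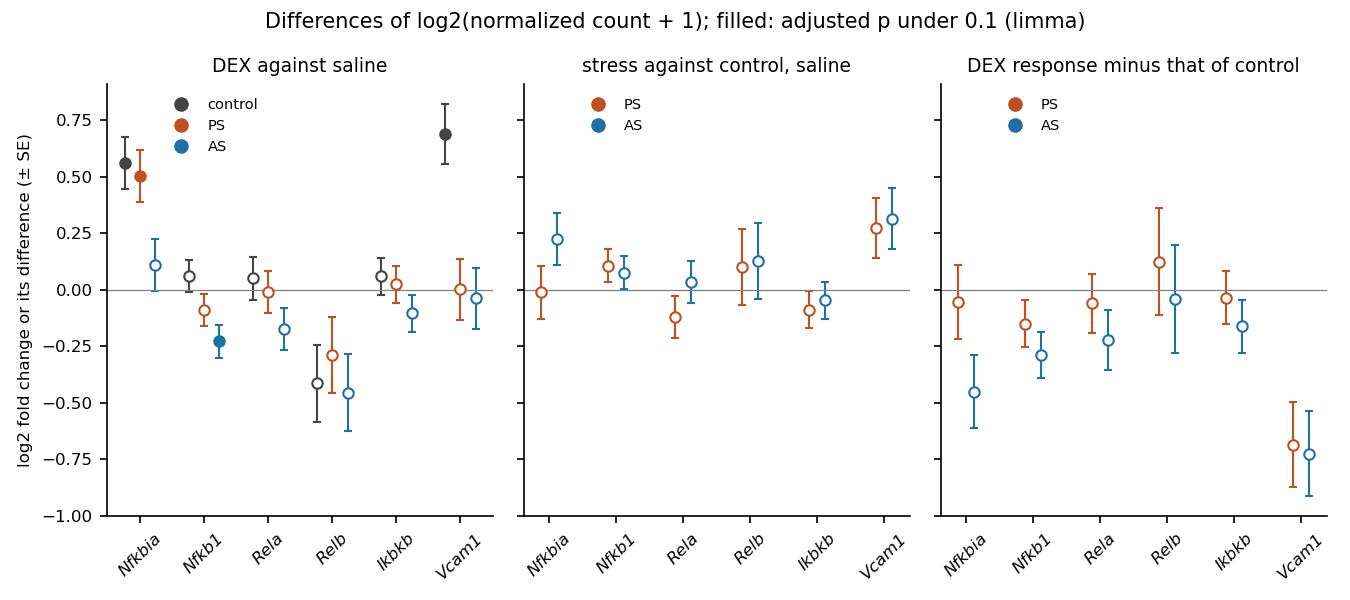
Estimated differences of the 6 members with SE on the log2(normalized count + 1) scale: DEX against saline in each phenotype (left), stressed against control mice with saline (middle) and the DEX response of stressed minus that of control mice (right); filled points had an adjusted p under 0.1. Filled points are those of Nfkbia in control and PS mice, Nfkb1 in AS mice and Vcam1 in control mice.

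The second question was whether chronic stress alone changed these genes. With saline, no member was called in any comparison of phenotypes. For PS against control, limma called 0 of 6 members, where 1.55% of all genes were called. No member had an unadjusted p under 0.05, beside 1833 of 13690 genes. For AS against control it called 0 of 6 beside 0.146% of all genes, and 1 member had an unadjusted p under 0.05, beside 1530 of 13690 genes. For AS against PS it called 0 of 6 and 0% of all genes, with 0 members at an unadjusted p under 0.05, beside 654 of 13690 genes. DESeq2 and edgeR also called 0 members in each of these comparisons, beside 3.15% and 1.55% of all genes for PS against control. The DESeq2 counts of all genes for AS against control and AS against PS are given in the last section. With so few genes called there, 0 of 6 says little about the members.

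Vcam1 was the member with the unadjusted p under 0.05 (0.0270), with a log2 difference of 0.31 (SE 0.13, adjusted p = 0.383, limma) between AS and control mice with saline. The control libraries ended and the AS libraries began at values that both round to 684, so that the groups touched without overlap. For PS against control the difference was 0.27 (adjusted p = 0.382, limma). Mean levels with saline were 624 ± 73.2 for control, 751 ± 62.8 for PS and 777 ± 104 for AS mice (SD, n = 4), while with DEX they were 1002 ± 84.0, 764 ± 170 and 758 ± 120. PS and AS means, with either treatment, therefore lay between the means of the control groups. Markers of leptomeningeal fibroblasts also had estimates above 0 with saline, in 6 of 6 tested genes for PS (median 0.42) and for AS against control (median 0.55), with 0 called. So did 3 of 3 border macrophage markers (medians 0.38 and 0.56, 0 called). For 16 endothelial markers the medians were -0.02 and 0.06, with 6 and 12 estimates above 0 for PS and AS. They were -0.03 and 0.09 for 9 mural markers (3 and 9 above 0). For 10 astrocyte markers they were 0.07 and 0.15 (8 and 10 above 0). For 12 microglial markers they were 0.11 and 0.19 (11 above 0 in both), and 0 were called in each of these lists. For 7 oligodendrocyte markers they were -0.18 and -0.47 (0 above 0 in both). They were -0.03 and 0.14 for 3 venous and activated endothelium markers (0 and 3 above 0), and 0.10 and -0.10 for 5 red blood cell markers. Neuronal medians were -0.15 and -0.12 (5 excitatory), -0.13 and -0.15 (6 inhibitory) and -0.05 and -0.06 (4 pan-neuronal). Of these further lists, 1 inhibitory marker was called, higher in PS. The part of these lists in the Vcam1 values was not tested.

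For Nfkbia the difference between AS and control mice with saline was 0.22 (adjusted p = 0.472) and that between AS and PS mice 0.24 (adjusted p = 0.928, limma). The other 4 members differed from control by at most 0.13 on the log2 scale in either stressed phenotype with saline.

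Vcam1 is made by endothelial cells and by some astrocytes and other cells, so the levels of cell type markers are given beside it. The summed level of 16 endothelial markers, all with a row in the table, ran in control mice from 10421 to 13669 normalized counts with saline and from 12970 to 18537 with DEX. In PS mice it ran from 9301 to 13098 with saline and from 7458 to 14438 with DEX, and in AS mice from 9241 to 14463 with saline and from 7723 to 11191 with DEX. The median log2 fold change of these markers with DEX was 0.26 in control (1 of 16 called higher, 0 lower), -0.24 in PS (1 higher, 1 lower) and -0.59 in AS mice (0 higher, 7 lower), where all 16 estimates were below 0. The median was thus above 0 in control mice, where Vcam1 rose, and below 0 in AS mice, where the estimate of Vcam1 was close to 0. Their part in the result was not tested.

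Vcam1 reads per read of the endothelial gene Pecam1 ran in control mice from 0.867 to 1.26 with saline and from 1.42 to 1.82 with DEX. They ran in PS mice from 1.27 to 2.02 with saline and from 1.56 to 2.37 with DEX, and in AS mice from 0.980 to 1.83 with saline and from 1.48 to 2.51 with DEX. The median of this ratio was 1.15 with saline and 1.64 with DEX in control mice, 1.35 and 1.83 in PS mice, and 1.33 and 2.28 in AS mice. It was thus higher with DEX in all 3 phenotypes, with overlapping ranges in PS and AS mice. The log2 fold change of Vcam1 itself was 0.00 in PS and -0.04 in AS mice, so the ratio rose there without a rise of Vcam1. Per read of Slc1a3, an astrocyte glutamate transporter, the control values ran from 0.0342 to 0.0478 with saline and from 0.0554 to 0.0666 with DEX. The PS values ran from 0.0411 to 0.0558 with saline and from 0.0411 to 0.0703 with DEX, and the AS values from 0.0398 to 0.0540 and from 0.0447 to 0.0556. The control groups thus stayed apart on both ratios, whereas per read of the tight junction gene Cldn5 they overlapped, with values from 0.791 to 1.07 and a median of 0.900 with saline, and a lowest value of 0.820 and a median of 1.15 with DEX. Per Cldn5 read, PS values had a median of 0.968 with saline and 0.961 with DEX, and AS values ran from 0.786 to 1.26 (mean 1.07) with saline and from 0.880 to 2.30 (mean 1.59) with DEX. These ratios were chosen with the values known and carry no test.

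**Figure D3:**
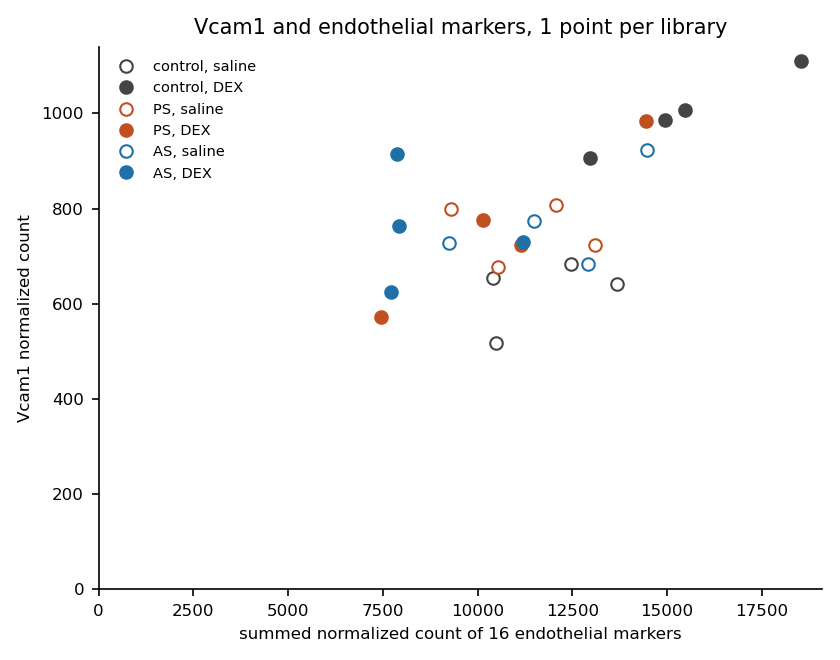
Vcam1 normalized count (vertical) against the summed normalized count of 16 endothelial markers (horizontal), 1 point per library, both axes from 0. The 4 control libraries with DEX have Vcam1 between 906 and 1110 at marker sums of 12970 to 18537, and the AS libraries with DEX have Vcam1 of 625 to 915 at sums of 7723 to 11191. PS DEX mouse 56 (Vcam1 984, sum 14438) and AS saline mouse 40 (922, sum 14463) lie among or beside the control libraries with DEX.

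For 9 mural cell markers, all in the table, the median log2 fold change with DEX was 0.25 in control (0 called), -0.27 in PS (0 called) and -0.70 in AS mice (5 called lower). Their summed level in control mice ran from 5445 to 7212 with saline and from 5926 to 9002 with DEX, and in AS mice from 5153 to 8916 with saline and from 3953 to 4926 with DEX. In PS mice it ran from 5325 to 6859 with saline and from 3636 to 7063 with DEX. For 10 astrocyte markers the medians were 0.15 in control (3 higher, 1 lower), -0.15 in PS (3 higher, 2 lower) and -0.09 in AS mice (2 higher, 3 lower). For 12 microglial markers they were 0.04 (1 higher, 3 lower), -0.13 (4 lower) and -0.24 (4 lower), and for 7 oligodendrocyte markers they were -0.30 (1 lower), 0.14 (0 called) and 0.46 (3 higher). For leptomeningeal fibroblasts, 6 of 7 markers were in the table, and the medians were 0.29 in control (1 higher), -0.72 in PS (0 called) and -0.61 in AS mice (1 lower). Their summed level ran in control mice from 1898 to 3213 with saline and from 2521 to 4110 with DEX, in PS mice from 2043 to 4655 and from 1201 to 3806, and in AS mice from 2746 to 4177 and from 1886 to 3441. For border macrophages, 3 of 5 markers were in the table, with medians of 0.59 (1 higher), -0.57 (1 higher, 1 lower) and -0.52 (1 lower). Their sums ran from 207 to 273 with saline and from 354 to 407 with DEX in control mice, from 192 to 386 and from 142 to 382 in PS mice, and from 258 to 427 and from 195 to 398 in AS mice. The 5 red blood cell markers had medians of 0.36, -0.80 and -0.19 with 0 called, and sums between 1123 and 4386 over the 24 libraries. For venous and activated endothelium, 3 of 5 markers were in the table, with medians of 0.51 (1 higher), -0.07 (1 higher) and 0.01 (1 higher, 1 lower). The median of this list was highest in control mice, and so was the Vcam1 estimate (0.69, 0.00 and -0.04). The same held for the leptomeningeal, border macrophage, endothelial, mural, astrocyte, microglial and red blood cell medians. It did not hold for the oligodendrocyte median or for the neuronal medians. In control, PS and AS mice these were -0.08, -0.02 and 0.03 for 5 excitatory neuron markers (1 lower in control, 1 higher in AS). They were -0.13, 0.09 and 0.03 for 6 inhibitory neuron markers (1 higher in control, 1 higher in AS). For 4 pan-neuronal genes they were -0.07, 0.06 and 0.18 (0 called). The part of these lists in the members' differences was not tested.

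The genes whose log2 levels over the 24 libraries were most like those of a member were sought for the 3 members called over the groups, among 12018 genes whose mean reached 100 normalized counts. For Vcam1 these were Timp3, an inhibitor of matrix metalloproteinases (Pearson r = 0.915), Txnip, the thioredoxin-interacting protein (r = 0.883), and Cp, the copper-binding ceruloplasmin (r = 0.869). Timp3 followed the same profile of DEX responses, 0.67 in control, -0.01 in PS and -0.05 in AS mice. The libraries share group, depth and tissue composition, so these values of r are descriptions over 24 points that are not independent of the groups.

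For Nfkbia the most alike were Sult1a1, a sulfotransferase (r = 0.867), Lfng, a glycosyltransferase that modifies Notch receptors (r = 0.866), and Ucp2, a mitochondrial carrier (r = 0.858). Lfng had DEX responses of 0.60 in control, 0.55 in PS and 0.18 in AS mice, while those of Sult1a1 were 1.57, 1.34 and 1.22. For Relb they were Cbfa2t3, a transcriptional corepressor (r = 0.812), Phf21b (r = 0.784) and Gas1 (r = 0.777), each with a log2 fold change below 0 in all 3 phenotypes. Among the members themselves, the highest r was that of Nfkbia with Vcam1 (0.564) and the lowest that of Nfkbia with Relb (-0.489).

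The other genes of the pathway were described in 5 lists that together named 130 genes, of which 82 were in the table and tested. Of these 82, DEX raised 8 and lowered 4 in control mice, raised 7 and lowered 8 in PS mice, and raised 5 and lowered 15 in AS mice. For the mean over phenotypes 13 rose and 15 fell. These were 14.6%, 18.3%, 24.4% and 34.1% of the 82, beside 6.72%, 5.62%, 9.15% and 16% of all tested genes. The lists were chosen with earlier results of these data known, so the shares are given as a description. None was called in a saline comparison of phenotypes or for a difference in DEX response (limma).

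Upstream of the subunits, 21 kinases and adaptors were tested and moved little. With DEX, 1 fell in control mice (Tradd, the adaptor of the tumour necrosis factor receptor, log2 fold change -0.46) and 1 rose in PS mice (Irak2, a kinase of the interleukin-1 receptor pathway, 0.21), and none was called in AS mice. The medians were 0.02, 0.00 and -0.03 in control, PS and AS mice, against medians of all genes of -0.01, -0.00 and 0.00. Of 12 receptors and ligands, 1 rose and 1 fell in control, 2 fell in PS, and 1 rose and 2 fell in AS mice, with medians of 0.03, -0.06 and -0.15. Tlr3, a receptor for double-stranded RNA, fell in all 3 (-0.41, -0.87 and -0.61), and Tlr7, a receptor for single-stranded RNA, rose in control (1.06) and AS mice (0.52). Ltbr, the lymphotoxin beta receptor upstream of Relb, fell in PS (-0.42) and AS mice (-0.43) and had a value of -0.04 in control mice.

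Of 17 other inhibitors and brakes, 2 rose in control, 2 rose in PS, and 1 rose and 1 fell in AS mice, with medians of 0.01, 0.04 and 0.07. Tsc22d3, the glucocorticoid-induced leucine zipper that binds NF-kappaB, rose in all 3 phenotypes (1.0, 1.11 and 1.08). Dusp1, a phosphatase of MAP kinases, rose in PS mice (0.56), and Zfp36, which destabilises cytokine mRNAs, rose in control mice (0.79). Nfkbiz, a nuclear IkappaB protein, was called for the mean over phenotypes (0.18) and in no single phenotype. The response of Tsc22d3 in AS minus that in control mice was 0.08 (adjusted p = 0.852, limma).

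Of 15 textbook NF-kappaB target genes, 4 rose and 1 fell in control, 4 rose and 1 fell in PS, and 2 rose and 4 fell in AS mice. The medians were -0.01, -0.09 and 0.11. Lcn2, an acute-phase protein, had the largest estimates, with means of 2.30 normalized counts with saline and 69.5 with DEX in control mice, 3.82 and 22.3 in PS mice, and 3.04 and 20.2 in AS mice. In saline libraries, 3 reads were worth 3.39 to 4.05 normalized counts in control, 1.40 to 3.84 in PS and 2.04 to 3.54 in AS mice. The control saline mean was below that range, and the PS and AS saline means lay within theirs. The size of the Lcn2 log2 fold changes therefore depends on the 1 added before taking the log. Cebpd, an acute-phase transcription factor, rose in all 3 (0.64, 0.99 and 0.58), and Ccnd1, the cell cycle gene cyclin D1, fell in all 3 (-0.24, -0.50 and -0.42). Cxcl12, a chemokine, fell in AS mice (-0.70) and had values of -0.12 in control and -0.45 in PS mice.

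The 17 leukocyte adhesion molecules and integrins, which are related to Vcam1 by role, had medians of 0.00 in control, -0.19 in PS and -0.33 in AS mice. With DEX, 1 rose and 1 fell in control, 5 fell in PS, and 1 rose and 8 fell in AS mice. Mcam fell in all 3 (-0.75, -0.57 and -0.88). Icam2, an adhesion molecule of resting endothelium, fell in PS (-1.03) and AS mice (-1.25) and had a value of -0.21 in control mice. Itga6, an integrin of vessels and other cells, fell in PS (-0.57) and AS mice (-0.57), as did Itgam, an integrin of microglia and myeloid cells (-0.62 and -0.47). Pecam1 and Esam of this list are also among the 16 endothelial markers, whose values are given above beside Vcam1, and their part in this list's changes was not tested.

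**Figure D4:**
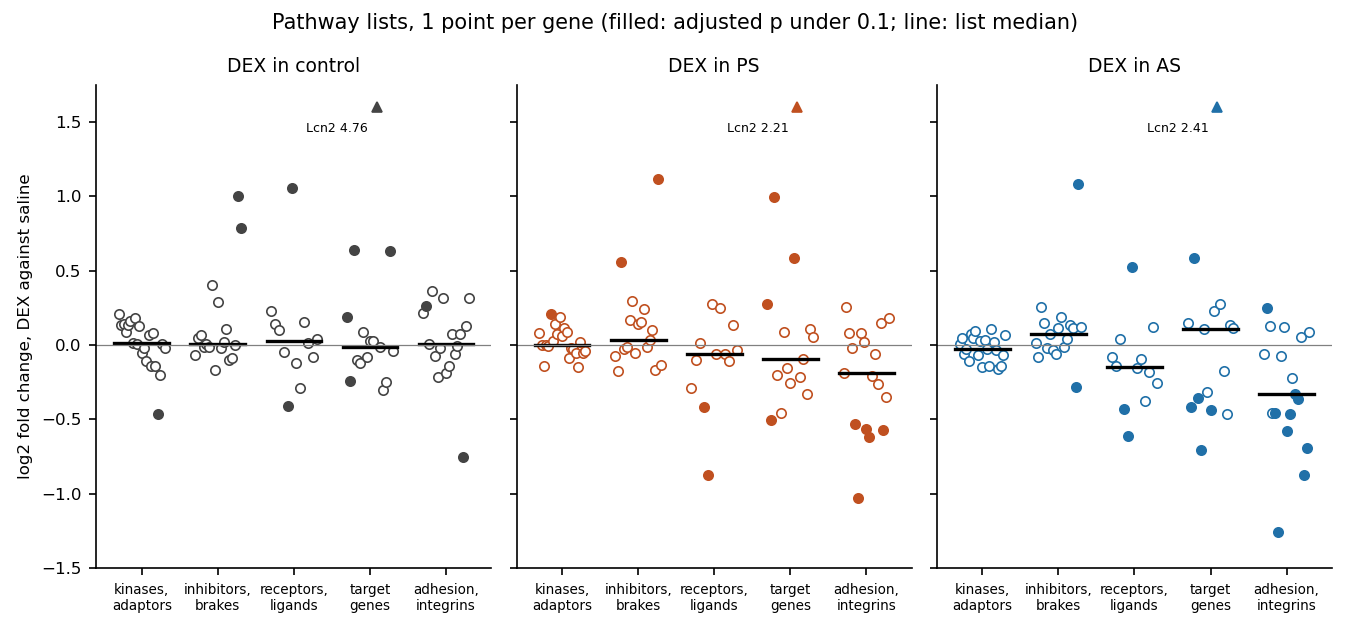
Log2 fold changes with DEX of 82 pathway genes by list in control, PS and AS mice, 1 point per gene, with filled points at an adjusted p under 0.1 and a line at each list's median. Triangles mark Lcn2, which lies beyond the axis at 4.76, 2.21 and 2.41 and had group means of only 2.30 to 3.82 normalized counts with saline. The adhesion list has its median at -0.33 in AS mice.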

How the data were processed

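PFC poly(A) libraries were strand-specific and sequenced in pairs. Per the labels and the study's methods, the authors trimmed reads with fastp 0.20.1, aligned them to mm10 (GRCm38) with HISAT2 2.2.1, counted them per gene with featureCounts (Subread 2.0) and divided each count by a DESeq2 1.36.0 size factor. The deposited values are these normalized counts, a signal per gene and library. Dividing by what 1 read was worth gave whole reads for 100% of values (tolerance 0.01), and these reads are the depths quoted. The authors' tables of log2 fold changes and p-values were not used, except for gene positions.

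Genes with at least 10 reads in at least 4 of 24 libraries were kept (13690 of 14074, so 384 were not tested). Log2(normalized count + 1) was fitted with limma 3.58.1 (R 4.3.3) over all 6 groups, with moderated two-sided tests, Benjamini-Hochberg adjustment over all genes and a threshold of 0.1. The script was tested on simulated data. Alternatives were a pseudocount of 8, genes with a mean of at least 100, every gene, quantile normalization, only the groups compared, library size as a covariate, edgeR 4.0.16 and DESeq2 1.42.0 on recovered reads, and leaving out each library. Named genes were all 10 members, up to 4 called genes per list with the largest mean DEX effect, the 3 genes most like each member called over the groups, and markers or label checks. Members and lists were chosen with earlier results of these data known. Exon lengths came from GENCODE M21, whereas the authors counted on another release, and promoters from RefSeq (GRCm38.p6), with entries for 2 of the 6 measured members.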

Additional observations from a re-analysis of the deposited data

How the results depend on the processing

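The counts of members called in control and PS mice, over phenotypes and in the saline comparisons stayed within 1.5 times of the reported count in the alternatives run. In AS mice the count with DEX, 1 as reported beside 9.15% of all genes, was 0 with quantile normalization (8.66% of all genes). The count was also 0 when only the groups compared were fitted (5.73%), because Nfkb1 was lost in both. It was 2 with edgeR (9.89%) and 2 with DESeq2 (11.7%), both of which added Relb. With a library left out it was 0 to 2, beside 5.02% to 14.7% of all genes. For the DEX response in AS minus control, 0 as reported, the count was 1 (Vcam1) when only the groups compared were fitted and 1 with DESeq2, and 0 to 1 with a library left out. The cause was not tested. No called value changed its direction. No paired analysis was possible because each mouse number occurs in a single group. With 4 mice per group and as few as 50 reads of Relb in a library, Relb within single phenotypes passed in some of these analyses and not in others. Over all genes, the 1252 called with DEX in AS mice became 784 when only the groups compared were fitted. The 212 called for PS against control with saline became 510 in that fit, 132 with library size as a covariate and 431 with DESeq2, and the 20 for AS against control became 5 when the mean had to reach 100 normalized counts, 13 with the covariate and 98 with DESeq2. For AS against PS the count was 11 with DESeq2 in place of 0. For the DEX response in PS minus control it was 5 with a pseudocount of 8, 2 with quantile normalization and 23 with DESeq2 in place of 0. The 46 genes for AS minus control became 1 with the mean filter, 80 with only the groups compared, 4 with the covariate, 82 with edgeR and 438 with DESeq2. With a library left out, the counts over all genes ran from 3 (without control saline mouse 117 or control DEX mouse 101) to 705 (without AS saline mouse 44) for AS minus control, from 687 (AS saline mouse 8) to 2018 (AS saline mouse 44) with DEX in AS mice, from 510 (PS saline mouse 2) to 884 (AS DEX mouse 60) with DEX in PS mice, from 52 (PS saline mouse 2) to 348 (AS saline mouse 44) for PS against control, and from 9 (AS saline mouse 40) to 46 (control DEX mouse 101) for AS against control with saline. They reached 5 for AS against PS with saline and 3 for PS minus control.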
